A study of Mus musculus with 21 samples.

Results

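The genes described here encode the mTORC1 complex and the machinery that tells it whether amino acids are present: *Mtor*, *Rptor*, *Rraga*, *Rragc*, *Depdc5*, *Sesn1*, *Sesn2*, *Sesn3*, *Tsc1* and *Tsc2*. These 10 genes were chosen by name and function, out of 21887 protein-coding genes on the chromosomes used, and each was followed through all 20 libraries. The measurement was the share of each gene body that lay inside called peaks of H3K36me3, hereafter its cover. H3K36me3, trimethylation of lysine 36 on histone H3, was mapped by chromatin immunoprecipitation and sequencing (ChIP-seq). The cells were C2C12, an established line of mouse myoblasts that fuse into muscle fibres in culture. The question the design addresses is how methionine supply and the enzyme SETD2 bear on this mark while the cells differentiate.

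Wild-type (WT) C2C12 cells were sampled on day 0 and on days 1 and 5 with control or methionine-restricted medium, which gives 5 conditions with 2 libraries each. A pair of Setd2 knockout (KO) lines, called line 1 and line 2 as the labels do, had 1 library each in the same 5 conditions. All groups share the same parental cell line, and nothing in the labels says that replicates came from separate cultures, so p-values measure only the spread between these libraries. The names of the peaks inside the lists call the KO libraries replicates of 1 group. The labels were followed, and each statement on a KO line rests on them. The loss of SETD2 protein was not measured here.

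mTORC1 is a kinase complex on the lysosome that turns on protein synthesis when growth factors and amino acids are both available. Amino acids act through the Rag GTPases, which bring mTORC1 to the lysosome. GATOR1 switches the Rags off, and the Sestrins act upstream of it as sensors of leucine and of stress. Growth factors act through the TSC complex, which restrains the GTPase Rheb, the direct activator of mTORC1. SETD2 travels with elongating RNA polymerase and places H3K36me3 over the bodies of transcribed genes, using S-adenosylmethionine made from methionine.

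The lists differed in length between conditions. The 6 WT lists from day 0 and control medium covered 140.2 to 183 Mb of the genome, and the 4 restricted WT lists covered 110 to 134 Mb. KO line 1 lists covered 0.307 to 74.1 Mb and KO line 2 lists 0.00821 to 7.13 Mb. Read depth is unknown, and a peak list holds no height on a common scale, so cover measures the position and reach of peaks alone. Whether the length of a list moved a gene's cover was tried by shortening all WT lists to the length of the shortest, keeping peaks from the highest authors' fold enrichment down. Values from shortened lists are given where they change a call of a named gene. Of 8 muscle genes listed as markers, *Des* and *Cdh15* had cover in all 10 WT libraries, and the other 6 were at 0 in at least 1 of them. All 8 had lower mean cover in restricted cells than in controls at day 1, as did all except *Myf5*, at 0 in both, at day 5. *Myod1* went from 59.0% to 0 at day 1 and from 72.6% to 0 at day 5, *Myog* from 71.9% and 92.6% to 0, and *Acta1* from 93.1% to 8.66% at day 5. *Pecam1*, *Cdh5*, *Ptprc*, *Adipoq*, *Epcam*, *Krt8*, *Gfap* and *Alb*, markers of other cell types, were at 0 in all 10 WT libraries. *Cd68* and *Tubb3*, listed as markers of macrophages and neurons, had cover of 100% and 64.2% on average at day 0. *Cd68* went from 98.5% to 0 with restriction at day 1 and from 96.1% to 7.94% at day 5, and *Tubb3* from 62.8% to 37.3% and from 43.6% to 29.6%. These markers thus moved with the restriction comparisons below, and their part in the results was not tested.

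**Figure D1:**
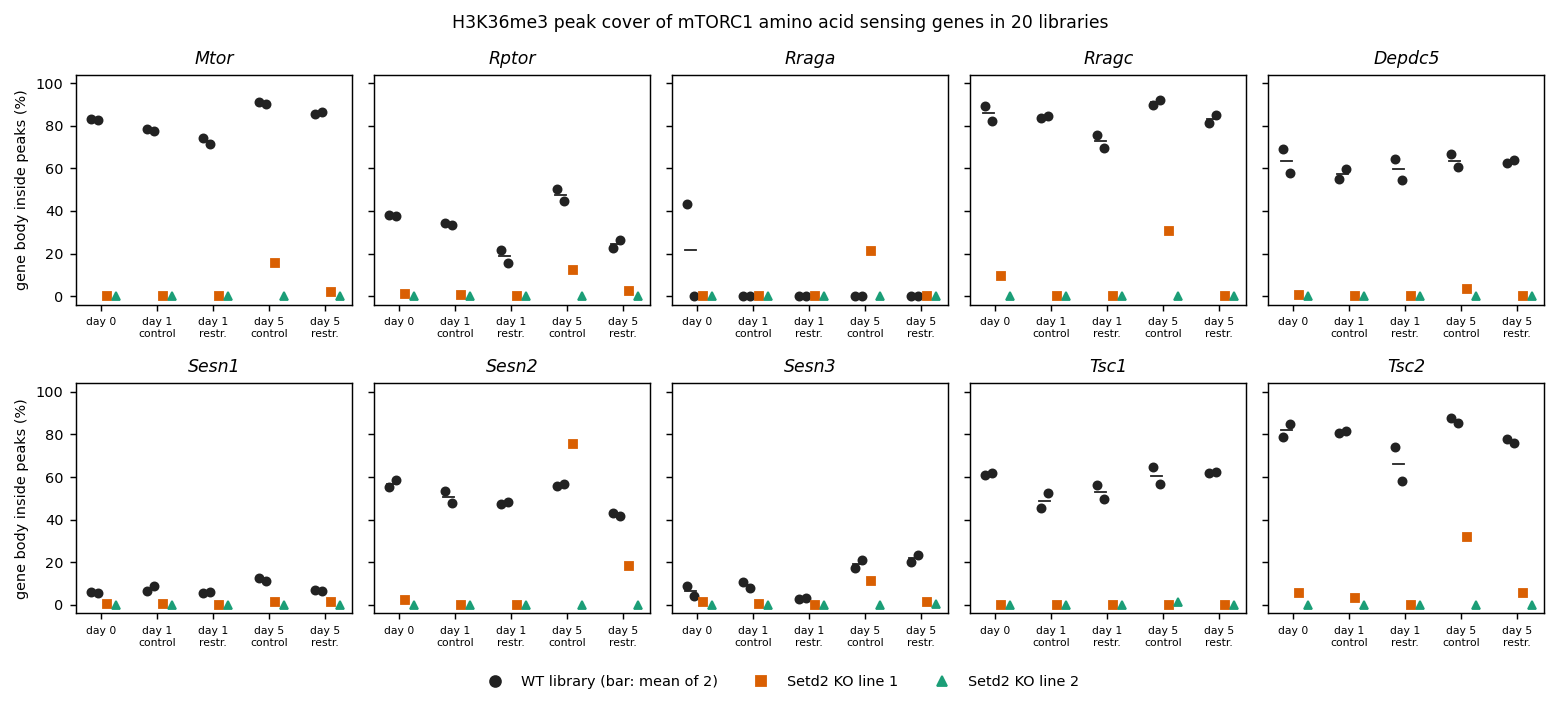
Cover of each of the 10 gene bodies (vertical axis, percent inside peaks) in the 20 libraries, by condition (horizontal axis). Circles are WT libraries with a bar at the mean of 2, squares are KO line 1 and triangles KO line 2. *Mtor*, *Rragc* and *Tsc2* sit high in WT cells, *Sesn1* and *Sesn3* low, and *Sesn2* in KO line 1 in day 5 controls (75.5%) lies above its WT libraries.

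The core of the complex was covered unequally. *Mtor*, the kinase, spans chr4:148448582-148557685 (GRCm38, plus strand), and its cover was 82.9% and 82.8% at day 0, 78.4% and 77.4% in day 1 controls, and 74.0% and 71.5% in restricted cells at day 1. At day 5 it was 90.9% and 90.3% in controls and 85.3% and 86.4% in restricted cells. The 2 libraries of each condition lay close together, and no condition overlapped another. A neighbour, *Angptl7*, lies within *Mtor* and shares 4.84% of its body.

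*Rptor* encodes raptor, the subunit that holds mTORC1 substrates and binds the Rags, and it spans chr11:119602905-119899591. Its cover was 37.9% and 37.8% at day 0, 34.4% and 33.6% in day 1 controls, and 21.6% and 15.7% in restricted cells at day 1. At day 5 the values were 50.1% and 44.4% in controls against 22.8% and 26.3% in restricted cells. Restricted libraries lay below control libraries on both days. A non-coding gene, *Rptoros*, overlaps 4.57% of the body. Cover of *Rptor* was concentrated towards its 3′ end: with the body divided into 10 bins of equal length, bins 9 and 10 averaged 87.7% at day 0 and bins 1 to 6 averaged 15.4%.

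The Rag GTPases work as a dimer of RagA or RagB with RagC or RagD. *Rragc* (chr4:123917433-123936997) had 89.3% and 82.2% cover at day 0, 83.6% and 84.4% in day 1 controls, and 75.8% and 69.7% in restricted cells at day 1. At day 5 it had 89.8% and 92.3% in controls and 81.3% and 85.0% in restricted cells. *Rraga*, a gene of only 1613 bases at chr4:86575673-86577285, had 43.1% cover in 1 day 0 library and 0 in the other 9 WT libraries. It therefore missed the minimum mean cover of 5% over the WT libraries and entered no test, which left 9 of the 10 genes tested.

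*Depdc5* (chr5:32863646-32994233) encodes the GATOR1 subunit that contacts the Rags. Its cover ranged from 54.4% to 69.1% over the 10 WT libraries, and its groups overlapped in every comparison made. *Tsc1* (chr2:28640993-28691172), the hamartin subunit of the TSC complex, ranged from 45.4% to 64.8%. *Tsc2* (chr17:24595816-24632676), the tuberin subunit with the activity towards Rheb, had 78.9% and 84.9% at day 0, 80.5% and 81.7% in day 1 controls, and 74.0% and 58.0% in restricted cells at day 1. At day 5 *Tsc2* had 87.7% and 85.5% in controls and 78.0% and 76.0% in restricted cells. The day 1 restricted libraries of *Tsc2* were the pair of replicates farthest apart among the 9 tested genes. A neighbour, *Pkd1*, shares 1.90% of the body of *Tsc2*.

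The 3 Sestrin genes differed in level and in course. *Sesn2* (chr4:132492804-132510456), the leucine sensor, had 55.5% and 58.4% cover at day 0, 53.4% and 48.0% in day 1 controls, and 47.5% and 48.4% in restricted cells at day 1. At day 5 it had 55.6% and 56.8% in controls and 43.2% and 41.5% in restricted cells. *Sesn3* (chr9:14276301-14326134) had 9.09% and 4.03% at day 0, 10.9% and 7.74% in day 1 controls, and 17.1% and 21.2% in day 5 controls. In restricted cells *Sesn3* had 2.69% and 3.36% at day 1 and 20.4% and 23.2% at day 5, so its restricted libraries lay below the controls at day 1 and overlapped them at day 5. *Sesn1* (chr10:41810574-41908436) had 6.15% and 5.67% at day 0, 6.48% and 8.79% in day 1 controls, and 5.82% and 6.24% in restricted cells at day 1. At day 5 *Sesn1* had 12.6% and 11.4% in controls and 7.04% and 6.35% in restricted cells, with no overlap.

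The cover of *Sesn1* lay mostly towards the 3′ end of its body. The gene has 2 annotated starts, the second 76.9 kb into the body. The stretch before the second start held at most 0.67% cover in any WT library. The 21.0 kb after it were covered to 28.7% and 26.4% at day 0, 56.5% and 51.6% in day 5 controls, and 30.8% and 28.0% in restricted cells at day 5. The 2 start windows, from 250 bases before to 50 after each start, are shown because the marked stretch follows the second and not the first. Both are RefSeq sequence of GRCm38.p6, plus strand, chr10:41810324-41810623 for the first and chr10:41887189-41887488 for the second. Capitals in the first mark a match to the forkhead motif GTAAACA on the other strand, which 3.65% of 32851 such windows hold on either strand.
Sesn1 first start: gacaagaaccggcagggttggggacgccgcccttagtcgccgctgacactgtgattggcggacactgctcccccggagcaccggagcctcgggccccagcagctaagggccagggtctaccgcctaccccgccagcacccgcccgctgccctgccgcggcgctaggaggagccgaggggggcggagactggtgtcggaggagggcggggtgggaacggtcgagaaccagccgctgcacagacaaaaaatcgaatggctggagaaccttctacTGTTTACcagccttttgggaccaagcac
Sesn1 second start: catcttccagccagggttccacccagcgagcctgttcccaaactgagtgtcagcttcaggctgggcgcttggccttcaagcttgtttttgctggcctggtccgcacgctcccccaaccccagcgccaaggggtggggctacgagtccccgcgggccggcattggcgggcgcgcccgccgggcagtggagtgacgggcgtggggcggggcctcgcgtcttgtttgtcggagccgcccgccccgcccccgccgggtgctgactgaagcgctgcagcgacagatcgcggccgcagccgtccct

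Along the body, the 3′ 50% of the body had more cover than the 5′ 50% in 7 of the 10 genes, beside 90.4% of 7829 tested genes with 1 strand. The 7 include *Rraga*, which missed the filter for tested genes and had cover in only 1 WT library. The difference was largest in *Sesn2*, with 9.34% in its 5′ part and 92.3% in its 3′ part over the 10 WT libraries. *Mtor*, *Depdc5* and *Tsc2* had more in the 5′ part, with 3′ minus 5′ differences of −12.5, −12.2 and −6.19 points. In *Mtor* bin 6 stood out: it had 46.1% cover at day 0 and 76.0% in day 5 controls, against 49.0% in restricted cells at day 5. At day 1 it had 47.8% in controls and 19.9% in restricted cells, its lowest level in WT cells. No start window of the 10 genes had any cover in a WT library.

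**Figure D2:**
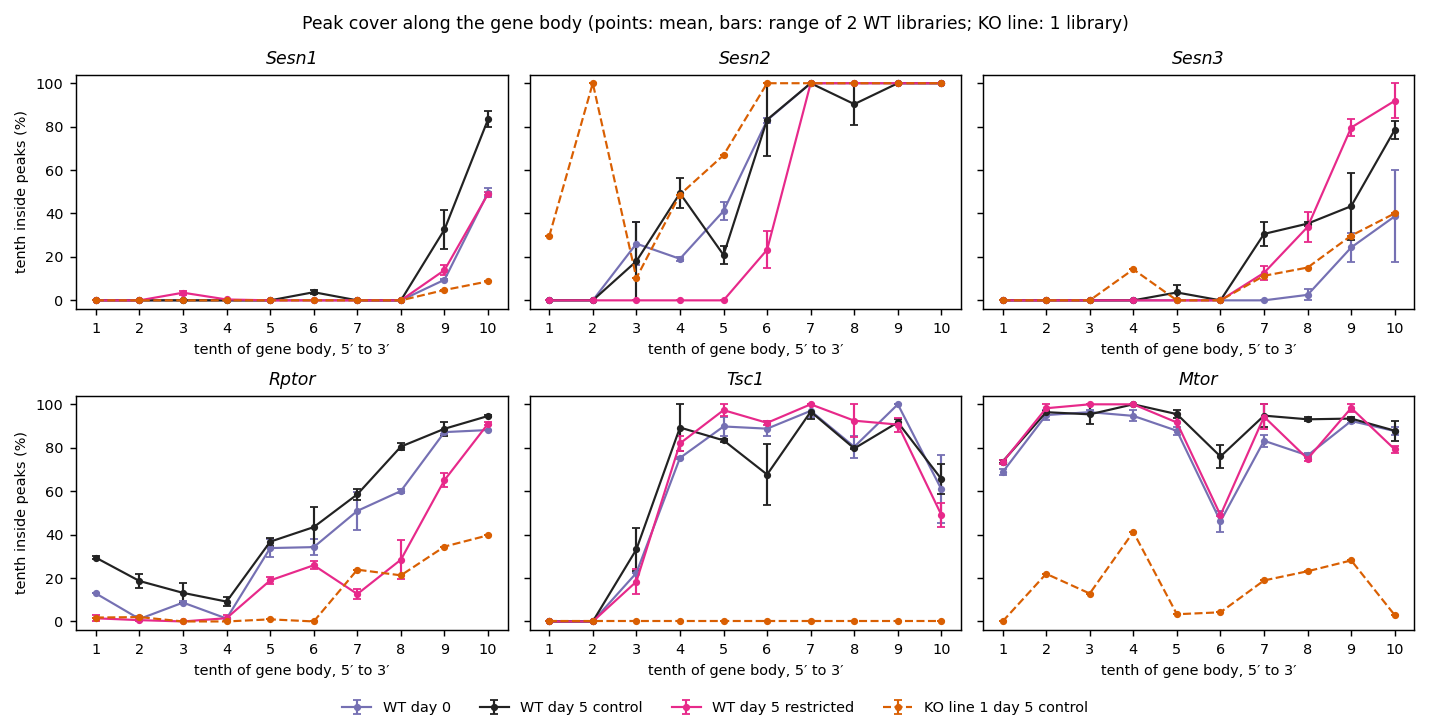
Cover of each of 10 bins of equal length along the gene body, from the 5′ to the 3′ end (horizontal axis), in percent (vertical axis), for 6 of the genes. Lines join means, bars span the 2 WT libraries, and the dashed line is the single KO line 1 library in day 5 controls. *Sesn1* is covered mainly in bins 9 and 10, *Sesn2* reaches bin 3 in 1 of the 2 day 5 controls and bin 4 in the other but begins at bin 6 in restricted cells at day 5, and *Tsc1* from bin 3.

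Methionine restriction at day 1 was tested in WT cells on the percent of cover. Cover of 3 of the 9 tested genes fell: *Rptor*, *Rragc* and *Tsc2*. None rose. Among all 9651 genes tested 36% were called lower, 2.29% higher and 38.3% in either direction, so the share among these genes was near the background. The median difference was −5.15 points over the 9 genes and −8.11 points over all genes. *Rptor* differed by −15.3 points (SE 3.75, adjusted p = 0.0129, limma), *Rragc* by −11.3 (SE 3.20, adjusted p = 0.0243) and *Tsc2* by −15.1 (SE 4.80, adjusted p = 0.0382). These calls depend on how libraries are scaled. With each library centred on its median, which added 15.5 points to every difference, the 3 differences turned to 0.11, 4.18 and 0.38 points and none was called. With lists shortened to equal length, the *Rptor* difference was −0.60 points (adjusted p = 0.926), while *Rragc* (−14.7 points, adjusted p = 0.072) and *Tsc2* (−10.3, adjusted p = 0.441) kept their direction without a call. Leaving out either day 1 control library or day 1 restricted replicate 2 left none of the 9 genes called. *Tsc2* also lost its call without any 1 of the 4 day 5 libraries. Over 21 alternatives in all, the call held in 16 for *Rptor*, 14 for *Rragc* and 8 for *Tsc2*.

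The genes without a call at day 1 included *Mtor* (−5.15 points, SE 2.09, adjusted p = 0.0856) and *Sesn3* (−6.32, SE 2.64, adjusted p = 0.0936). *Depdc5* and *Tsc1* had differences of 2.10 (SE 5.19) and 4.30 points (SE 4.45). Both were called higher with libraries centred (17.6 and 19.8 points, adjusted p = 0.00431 and 0.00256), and *Depdc5* also with shortened lists (15.4 points, adjusted p = 0.035). Centring also called *Mtor*, *Sesn1* and *Sesn2* higher. All 4 restricted and control libraries were apart, restricted below control, in 6 of the 9 genes, beside 59.7% of all genes tested.

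At day 5 under restriction, cover of *Rptor*, *Sesn1* and *Sesn2* fell, again 3 of 9 and none higher, beside 41.5% of all genes called lower, 4.28% higher and 45.7% in either direction. The median difference was −5.28 points over the 9 genes and −9.25 over all. *Rptor* fell by 22.7 points (SE 3.75, adjusted p = 0.00165), *Sesn2* differed by −13.9 (SE 3.65, adjusted p = 0.015) and *Sesn1* by −5.28 (SE 1.68, adjusted p = 0.0322). With the replicate number as a block *Sesn1* lost its call (adjusted p = 0.0506). Centring, which added 16.9 points to every difference, turned *Sesn2* to 3.04 points (adjusted p = 0.593), left *Rptor* at −5.84 (adjusted p = 0.168) and reversed the call of *Sesn1*, which was then called higher by 11.6 points (adjusted p = 0.00829). Shortened lists gave −4.22 points for *Rptor* (adjusted p = 0.382) and 16.1 for *Sesn2* (adjusted p = 0.447). *Rptor* kept its call with any single WT library left out, and *Sesn2* lost it without any 1 of the 4 day 5 libraries. *Sesn1* lost it without day 5 control replicate 1 or either day 5 restricted library, on the arcsine scale, without the trend and robust settings and with only the groups compared. In all, the call held in 19 of 21 alternatives for *Rptor*, 14 of 21 for *Sesn2* and 12 of 20 for *Sesn1*. *Sesn1* missed the filter in shortened lists and under a peak threshold of −log10 q 3 or more. Its count includes a fit from its second start only, a choice made after seeing the data, which kept the call.

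The loss of cover in *Rptor*, in points, was uneven along the gene, with bins grouped in this way for *Rptor* alone. In bins 7 and 8 cover averaged 69.5% in day 5 controls and 20.5% under restriction, and 56.0% against 15.1% at day 1. In bins 9 and 10 it was 91.7% against 78.1% at day 5, and 80.0% against 64.1% at day 1. Bins 1 to 6 also lost cover, with 25.1% against 8.06% at day 5 and 11.3% against 4.69% at day 1. In *Sesn2* the first covered base lay 3.86 and 5.74 kb from the start in day 5 controls and 9.64 and 10.3 kb under restriction. Its bins 7 to 10 were covered at 100% in both restricted libraries at day 5, and in the controls apart from bin 8 of replicate 1 (80.7%). *Sesn1*, measured from its second start only, a choice made after seeing the data, had a day 5 difference of −24.7 points (adjusted p = 0.00264).

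The other genes passed no threshold at day 5 in the fit of all WT groups. *Mtor* differed by −4.72 points (SE 2.09, adjusted p = 0.0998), *Rragc* by −7.91 (SE 3.20, adjusted p = 0.0756) and *Tsc2* by −9.61 (SE 4.80, adjusted p = 0.138), and in each of the 3 both restricted libraries lay below both control libraries. That held for 6 of the 9 genes, beside 65.4% of all genes tested. With libraries centred, *Mtor* and *Rragc* turned to 12.2 and 8.98 points and were called higher (adjusted p = 0.00499 and 0.022). With only the day 5 groups fitted, *Mtor* (adjusted p = 0.0487), *Rragc* (0.0315) and *Tsc2* (0.0154) were instead called lower, beside 5045 of 9509 genes called in either direction in that fit. *Depdc5* (−0.31 points, SE 5.19), *Sesn3* (2.65, SE 2.64) and *Tsc1* (1.42, SE 4.45) had differences near or within their SE. Scaling moved all 3 upwards. *Sesn3* was called higher with shortened lists (15.6 points, adjusted p = 0.00136) and with libraries centred (19.5 points, adjusted p = 0.00255), as was *Tsc1* (27.2 points, adjusted p = 0.0105, and 18.3 points, adjusted p = 0.00303). *Depdc5* was called higher with libraries centred (16.6 points, adjusted p = 0.00483). The restriction difference at day 5 was also tested against that at day 1. None of the 9 genes passed by limma, beside 5.15% of all genes (1.6% higher and 3.55% lower). *Sesn3* was the 1 gene with an unadjusted p under 0.05 (8.97 points, SE 3.73, adjusted p = 0.226), and with shortened lists it was called (19.5 points, adjusted p = 0.00979).

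**Figure D3:**
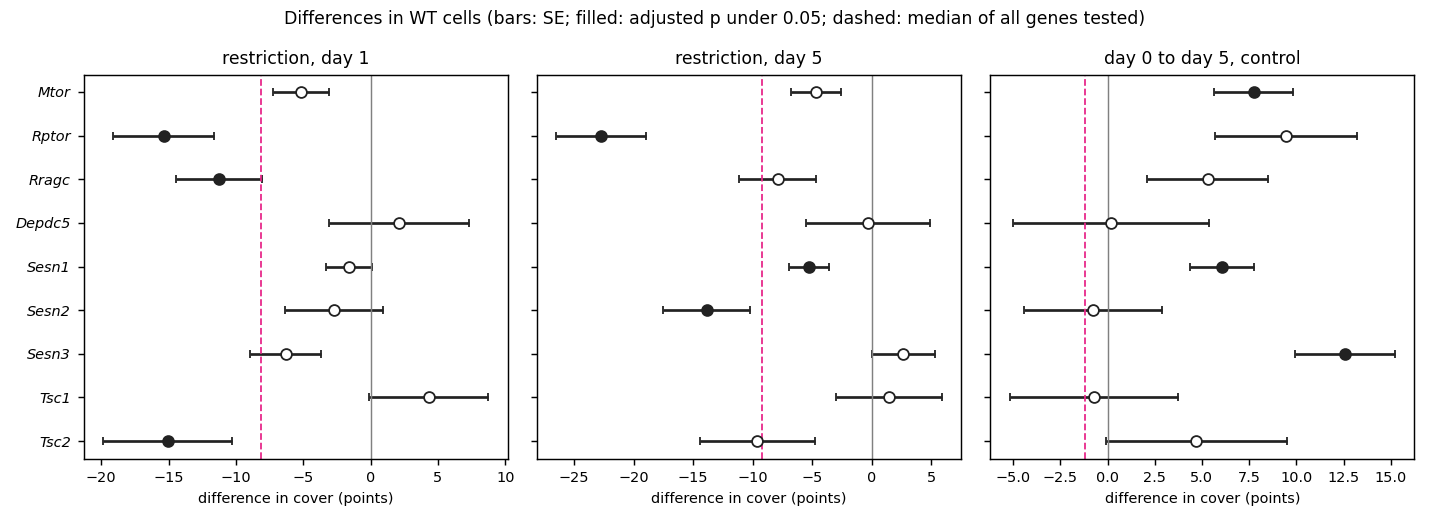
Differences in cover in points (horizontal axis) for the 9 tested genes in WT cells: restricted minus control at day 1 and day 5, and day 5 minus day 0 in control medium. Bars are SE, filled points passed an adjusted p of 0.05, and the dashed line is the median of all genes tested (−8.11, −9.25 and −1.20 points). *Rptor* is lowest under restriction on both days as plotted, and with libraries centred its day 1 value turns to 0.11.

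Differentiation was followed in control medium. From day 0 to day 1 none of the 9 passed by limma, beside 6.67% of all genes (0.974% higher and 5.7% lower). *Mtor* (−4.93 points, adjusted p = 0.189) and *Tsc1* (−12.5 points, adjusted p = 0.129) were the 2 with an unadjusted p under 0.05. From day 0 to day 5 cover of *Mtor*, *Sesn1* and *Sesn3* rose, and none fell, beside 12% of all genes called higher and 27.6% in either direction. That is 3 of 9, and the difference between the shares was not tested. *Sesn3* differed by 12.6 points (SE 2.64, adjusted p = 0.00837), *Mtor* by 7.76 (SE 2.09, adjusted p = 0.0253) and *Sesn1* by 6.06 (SE 1.68, adjusted p = 0.0282). The median was 5.30 points over the 9 genes and −1.20 over all. *Rragc*, *Rptor* and *Tsc2* had values of 5.30, 9.45 and 4.71 points and passed no threshold. With shortened lists *Sesn3* was not called (3.27 points, adjusted p = 0.288) and *Mtor* kept it (22.1 points, adjusted p = 0.00273). With libraries centred *Sesn1* lost its call (8.49 points, adjusted p = 0.0505) and *Rptor* gained one (11.9 points, adjusted p = 0.0257). In all, the call held in 17 of 20 alternatives for *Sesn3*, 15 of 21 for *Mtor* and 11 of 20 for *Sesn1*. The *Sesn1* count again includes the fit from its second start, chosen after seeing the data, which kept the call. None of the 3 called genes was called when only these 2 groups were fitted, nor without day 5 control replicate 2, and 1 was called without any other single library of the 2 groups.

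In *Sesn3* the gain lay in bins 7 to 10. Bin 7 had no cover at day 0 and 30.6% in day 5 controls, and bin 10 had 38.7% and 78.6%. In *Sesn1* bin 10 had 49.6% at day 0 and 83.4% at day 5.

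The Setd2 KO lines were compared with WT cells as the mean over the 5 conditions. In that fit the 2 lines served as the 2 samples of each KO group, and libraries of the same line were treated as independent. Its p-values thus count more independent KO samples than there are lines. Cover of 8 of the 8 genes that passed the filter in that fit was lower, beside 97.8% of 8983 genes called lower and 0.0445% higher. The filter bears on these counts, since genes with little KO cover passed it only through WT cells, where they were high, so they are a description. Without it 9 of the 10 genes were called, beside 10440 lower and 174 higher of 13139 genes. The differences ran from −80.2 points for *Mtor* (SE 2.44, adjusted p = 3.11e-12) to −10.5 for *Sesn3* (SE 1.32, adjusted p = 4.62e-06). *Sesn1* and *Rraga* missed the filter there.

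The 2 lines were not alike. In KO line 2 cover was 0 for all 10 genes in all 5 libraries, apart from 1.54% of *Tsc1* and 0.52% of *Sesn3* at day 5. Most tested genes were also at 0 in that line, where 0.249% (day 1 restricted) to 13.5% (day 5 controls) of them had cover. KO line 1 had cover over 9 of the 10 genes in day 5 controls and none over *Tsc1*. Among the 9 that passed the filter, which leaves out *Rraga*, 8 had cover, beside 71.1% of tested genes. With 1 library per line and condition, no difference between the lines was tested, and line and list length cannot be told apart.

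In day 5 controls KO line 1 had 15.7% cover of *Mtor*, 12.4% of *Rptor*, 30.7% of *Rragc*, 32.1% of *Tsc2*, 11.1% of *Sesn3* and 3.40% of *Depdc5*. *Sesn2* stood apart at 75.5%, above its WT libraries of 55.6% and 56.8% in that condition. *Rraga*, at 21.3%, was also above WT, where both libraries were at 0. Of the 9 genes that passed the filter *Sesn2* alone was above both WT libraries there, beside 6.04% of tested genes, and 5.84% of tested genes had more cover than *Sesn2* there. The peaks over *Sesn2* in KO line 1 began 1.24 kb from the start and filled its bin 2, which no WT library of day 0 or day 5 covered. Under restriction at day 5 the same line had 18.4% of *Sesn2*, and all 9 genes with cover, *Rraga* included, were lower than in control medium. Among tested genes with cover in either medium 92% of 6972 were lower.

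The only start window of the 10 genes that held a peak in any list was that of *Tsc1*, in KO line 2 in day 5 controls. The peak was 773 bases long, chr2:28641043-28641815, with an authors' fold enrichment of 3.19, and covered 80.0% of the window. It was a weak peak in a single library: its −log10 q was 1.85, and 33.9% of the peaks in its list had a lower fold. The annotated start on which the *Tsc1* window is placed lies inside the gene body given above, not at its first base. The same holds for *Depdc5* and *Tsc2*. The *Tsc1* window follows, on the plus strand of GRCm38.p6 (RefSeq), chr2:28640983-28641282, with the 240 bases inside the peak in capitals.
Tsc1 start: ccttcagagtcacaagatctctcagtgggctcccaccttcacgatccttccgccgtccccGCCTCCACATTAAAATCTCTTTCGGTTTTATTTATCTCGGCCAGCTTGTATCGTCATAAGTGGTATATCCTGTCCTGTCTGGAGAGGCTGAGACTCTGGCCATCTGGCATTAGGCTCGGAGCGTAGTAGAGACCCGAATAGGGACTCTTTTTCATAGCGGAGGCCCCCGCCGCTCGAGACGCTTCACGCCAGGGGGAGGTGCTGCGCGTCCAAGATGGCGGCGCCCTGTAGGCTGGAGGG

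A list of 44 other genes of the pathway was read beside these, of which 43 were found in the gene table and 37 passed the filter. Under restriction at day 1 cover of 13 fell and of 1 rose (*Fnip2*), and at day 5 cover of 20 fell and of 1 rose (*Mios*). These stand beside 38.3% and 45.7% of all genes called in either direction. *Castor2* and *Slc38a9* passed the 5% minimum only through the day 5 controls, where they were high. Their day 5 tests, with *Slc38a9* among the falls (−13.3 points, adjusted p = 0.0116), were not independent of that choice. The medians over the 37 genes were −7.80 and −12.2 points.

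The strongest loss was in *Ddit4*, which encodes REDD1, an inhibitor of mTORC1 induced by stress. This gene of 2.10 kb had 76.0% cover (SD 1.35, n = 2) in day 1 controls and 77.2% (SD 6.81, n = 2) at day 5, and was at 0 in all 4 restricted libraries. *Ddit4* kept its call under all 21 alternatives on both days (adjusted p = 3.35e-05 and 1.74e-05). *Eif4ebp1*, which encodes the translation repressor 4E-BP1, a direct mTORC1 substrate, went from 56.4% to 15.1% at day 1 (adjusted p = 8.93e-05) and from 69.9% to 19.9% at day 5 (adjusted p = 2.55e-05). Its call was lost only with shortened lists (adjusted p = 0.114 and 0.187).

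Within GATOR1, *Nprl3* fell by 32.5 points at day 1 and by 27.7 at day 5 (adjusted p = 0.000445 and 0.000732), and *Nprl2* by 36.1 at day 1 (adjusted p = 0.0105). At day 5 *Nprl2* differed by −3.98 points (adjusted p = 0.733), and their partner *Depdc5* by 2.10 and −0.31 points at days 1 and 5, with no call as fitted. Within GATOR2, the complex that the Sestrins bind, *Wdr24* fell by 39.1 points at day 1 (adjusted p = 0.0188) and by 36.8 at day 5 (adjusted p = 0.0203). *Seh1l* differed by −29.4 points at day 1 (adjusted p = 0.000167) and by −29.1 at day 5 (adjusted p = 0.000127). Of the other GATOR2 genes, *Mios* rose at day 5 (14.7 points, adjusted p = 0.0282), *Wdr59* differed by −6.48 and −4.14 points and *Sec13* by −11.6 and −9.05, without a call on either day. *Mlst8*, the small subunit that binds the kinase domain of mTOR, went from 82.1% to 42.1% at day 1 (adjusted p = 7.97e-05). At day 5 it went from 82.2% to 58.3% (adjusted p = 0.000596). *Eif4ebp2* fell by 32.4 points at day 5 (adjusted p = 0.000844) and differed by −23.6 at day 1 (adjusted p = 0.00509). The day 1 calls of *Seh1l* and *Eif4ebp2* and the day 5 call of *Mlst8* were not followed under the alternatives. With libraries centred the other falls called here kept their sign, but those of *Wdr24* on both days, *Nprl2* at day 1 and *Nprl3* at day 5 were no longer called. The uncalled differences of *Wdr59*, *Sec13* and, at day 5, *Nprl2* are smaller than the 15.5 and 16.9 points that centring adds, so they turn positive, as that of *Depdc5* does at day 5. Shortened lists ended the calls of *Mlst8* at day 1 (−40.0 points, adjusted p = 0.125), *Nprl2* at day 1 (−9.21, adjusted p = 0.848) and *Eif4ebp2* at day 5 (−3.81, adjusted p = 0.411). The same lists ended that of *Wdr24* on both days (−39.1 points, adjusted p = 0.204, and −15.2, adjusted p = 0.613). *Wdr24* also lost its call without either day 1 control library, and at day 5 without any 1 of the 4 day 5 libraries, and *Nprl2* without day 1 control replicate 2. Merging peaks across gaps of up to 1 kb ended the *Wdr24* calls on both days, and a stricter peak threshold (−log10 q of 3 or more) ended those of *Nprl2* and *Eif4ebp2*.

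From day 0 to day 1 in control medium *Lpin1*, which encodes a phosphatidate phosphatase downstream of mTORC1, rose by 15.6 points (adjusted p = 0.0357). *Akt1s1* (−44.7 points, adjusted p = 0.00291), *Eif4ebp1* (−20.2, adjusted p = 0.0144) and *Fnip2* (−17.2, adjusted p = 0.00943) fell. These 4 of 37 stand beside 6.67% of all genes, and no gene of any kind was called when only these 2 groups were fitted. *Eif4ebp1* and *Fnip2* lost their calls without either day 1 control library, with shortened lists (adjusted p = 0.478 and 0.406) and with libraries centred (adjusted p = 0.148 and 0.159), and *Lpin1* kept its call in 3 of 10 fits that left out a library. From day 0 to day 5 in control medium 7 of the 37 listed genes rose and 3 fell, beside 12% of all genes called higher, 15.6% lower and 27.6% in either direction, so the share called was near the background. *Castor2*, related to the arginine sensor CASTOR1, had the largest rise, from 2.75% to 38.0% (35.2 points, adjusted p = 0.000203). *Castor2* passed the 5% minimum only through the day 5 controls, where it was high, so its test was not independent of that choice. The same holds for *Slc38a9*, at 3.04% at day 0 and 21.8% in day 5 controls. *Bmt2*, which encodes SAMTOR, the sensor of S-adenosylmethionine, rose from 18.4% to 39.9% (adjusted p = 0.017). *Lpin1* rose from 14.6% to 33.6% (adjusted p = 0.00401). The *Bmt2* call was lost without day 0 replicate 2 or either day 5 control library. *Akt1s1*, which encodes the mTORC1 inhibitor PRAS40, differed by −38.8 points (adjusted p = 0.000633), *Rhebl1* by −22.9 (adjusted p = 0.0342) and *Fnip2* by −22.1 (adjusted p = 0.000343). *Rhebl1* kept its call in 4 of 10 fits that left out a library. On both days the *Akt1s1* call was lost with peaks merged across gaps of up to 1 kb (at day 5 adjusted p = 0.0682). *Bmt2*, singled out after its values were seen as the gene whose product senses the methionine pathway, was 21.0% in restricted cells at day 5, a difference of −18.9 points (SE 5.29, adjusted p = 0.0196). That call was lost without any 1 of the 4 day 5 libraries, with shortened lists (−7.54 points, adjusted p = 0.0804) and with libraries centred (−2.03 points, adjusted p = 0.695). At day 1 *Bmt2* differed by −6.88 points (adjusted p = 0.34).

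**Figure D4:**
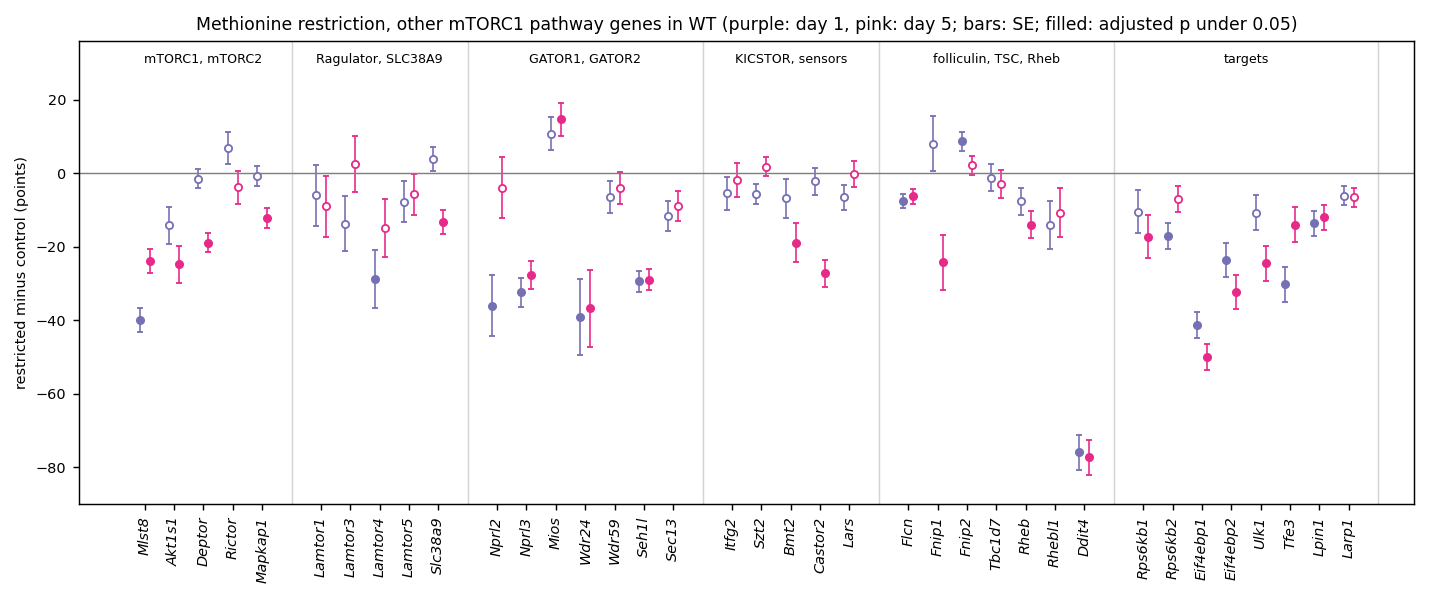
Restricted minus control cover in points (vertical axis) for the 37 other pathway genes tested in WT cells, grouped by role (horizontal axis), at day 1 (purple) and day 5 (pink). Bars are SE and filled points passed an adjusted p of 0.05. *Castor2* and *Slc38a9* passed the 5% minimum of cover only through the day 5 controls. *Ddit4* lies lowest at −76.0 and −77.2 points, and *Mios* is the one filled point above 0 at day 5 (14.7).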

How the data were processed

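H3K36me3 ChIP-seq was measured in 20 libraries of C2C12 cells, and the deposited files were 20 broad-peak lists of 9 columns, 1 per library. The aligner, peak caller and read depth are not given in the sources used here. The build was GRCm38, per the submitters' processing notes. Per the labels' protocols, Drosophila chromatin was added as a spike-in, and no scaling by it was applied here. For every peak the authors deposited a score, a fold enrichment (a ratio) and the −log10 of its p and q values. Fold and q served only to choose peaks inside each list in the alternatives, and score and p were not used. No input file was analysed here.

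Overlapping peaks were merged, and the cover of RefSeq gene bodies (GRCm38.p6) was taken for protein-coding genes with a length of 1 kb or more. Cover in percent was fitted with limma 3.58.1 in R 4.3.3 (trend and robust settings) over the 10 WT libraries, for 9651 genes with mean cover of at least 5%. The KO fit used all 20 libraries and 8983 genes. P-values were adjusted by Benjamini-Hochberg over all genes, with a threshold of 0.05. The 10 genes, the pathway list and the alternatives were chosen with earlier results of these data known. Pathway genes were named where called, at most 6 per comparison by size. Outside this rule, further genes were added after their values were seen. Under restriction these were *Bmt2*, *Castor2*, *Fnip2*, *Mios*, *Slc38a9*, *Wdr59*, *Sec13*, and *Nprl2* at day 5. *Seh1l* and *Eif4ebp2* at day 1, *Mlst8* at day 5 and *Slc38a9* from day 0 to day 5 were added too. Replicate numbers did not pair the samples.

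The fit was tested on simulated data for 9651 genes, with 200 genes raised by 30 points, in 6 draws for each of the 5 WT comparisons under each of 3 noise models. The noise model was revised after the first results were seen, so all 3 are given. A further model, which could give both replicates of a group the same deviation and so produced mostly false calls, was dropped as faulty. With noise independent per gene and library a median of 65.5% of changed genes were recovered and 4.45% of calls were false, at most 10.8%. With whole libraries reassigned the median recovery was 55.8% (false calls at most 8.33% in these draws, although an earlier draw gave a higher share for restriction at day 5), and with genes shuffled as well 62.5% (at most 15.3%). Recovery for the difference between days was lowest, with medians of 37.5%, 21.5% and 24% under the 3 models. None of the 3 simulates a change in the length of a whole list with the condition.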

Additional observations from a re-analysis of the deposited data

Results flagged for a closer look

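In 2 of the 37 tested genes of the pathway list, beside 5.15% of all genes, the restriction difference at day 5 itself differed from that at day 1 in WT cells, by the interaction term of the limma fit. *Deptor*, which encodes an inhibitory subunit of mTOR complexes, had a difference of differences of −17.5 points (adjusted p = 0.0312). *Castor2* had −25.1 points (adjusted p = 0.0319), but it passed the 5% filter only through the day 5 controls, which also enter this difference. Each call held under 11 of 19 alternatives, and under 4 of the 10 that leave out a library. None of the 9 tested sensing genes was flagged.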

How the results depend on the processing

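Of 1078 values of the tested sensing genes under an alternative, 942 kept direction and side of the threshold, 50 changed sign without a call in either fit, 54 lost and 20 gained a call, and 12 were reversed, 11 of them by centring. For restriction at day 1, 3 genes were called, against 1 with shortened lists (*Depdc5*, higher), 5 with centring (all higher), 1 with only the groups compared (*Rptor*), and 0 to 4 with 1 library left out. Centring gave *Depdc5* 17.6, *Tsc1* 19.8, *Mtor* 10.3, *Rptor* 0.11, *Rragc* 4.18, *Sesn1* 13.9, *Sesn2* 12.7 and *Tsc2* 0.38 points. For day 5, 3 were called, against 6 with centring (all higher), 2 with shortened lists (*Sesn3* and *Tsc1*, higher), 5 with only the groups compared (*Mtor*, *Rptor*, *Rragc*, *Sesn2* and *Tsc2*, lower, beside 5045 of 9509 genes called), and 1 to 4 with 1 library left out (1 without day 5 control replicate 1 or either restricted library). Centring gave *Mtor* 12.2, *Rragc* 8.98, *Depdc5* 16.6, *Tsc1* 18.3, *Sesn3* 19.5, *Sesn1* 11.6 and *Sesn2* 3.04 points, and shortened lists gave *Sesn2* 16.1. For day 5 against day 0, 3 were called, against 0 with a −log10 q of at least 3 (7 genes tested, without *Sesn1* and *Sesn3*), 1 with shortened lists (*Mtor*), 0 with only the groups compared, and 0 to 3 with 1 library left out. The interaction had 0, against 1 with shortened lists (*Sesn3*, 19.5 points). In all WT comparisons shortened lists tested 8 genes, without *Sesn1*. The KO comparison had 8, with 7 to 9 under alternatives. The causes were not tested.

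Over all genes, restriction gave 221 higher and 3473 lower at day 1 and 413 and 4002 at day 5. Centring gave 3594 and 1263, and 3811 and 1398. Shortened lists gave 679 and 1661, and 1284 and 1714. Day 1 against day 0 had 644 genes called, and 0 with only the groups compared. For day 5 against day 0 the split of 1159 higher and 1506 lower became 1613 and 1309 with centring.

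The replicate numbers did not pair the samples: over 10 pairs of groups the correlation of replicate differences across genes was −0.43 to 0.06. With the replicate block, restriction at day 5 had 2 genes called, *Sesn1* having lost its call. The KO condition left out, the WT libraries left out of the KO fit and the second start of *Sesn1* were chosen after seeing the data. Unknown depth limits all values.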

Other observations

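For each gene the protein-coding genes closest in cover over the 10 WT libraries were found by the mean absolute difference, as a description. *Rptor* was closest to *Ahnak* (2.07 points) and *Lima1* (2.08 points), *Mtor* to *Arhgap1* (1.89) and *Fam120b* (2.65), and *Rragc* to *Ncstn* (1.76) and *Eprs* (1.78). *Sesn2* was closest to *Zmynd8* (2.66) and *Eif5a* (2.93), *Sesn3* to *Usp54* (2.68), and *Tsc2* to *Slc27a4* (2.01) and *Zfp143* (2.43). *Depdc5* was closest to *Eloa* (2.32) and *Tsc1* to *Zfp426* (3.03).

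Among the start windows of the sensing genes, that of *Rragc* held CACGTG, the E-box letters read by TFEB and MYC, 112 bases before the start, and 7.15% of 32851 windows hold it. That of *Tsc2* held CAGCTG, the E-box letters read by MyoD, from base 18 after the start, and 16.3% of windows hold it. The letters TGATGNAAN were in none of them and in 3.95% of all windows. Both strands were searched.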
